A study of Homo sapiens with 6 samples.

Results

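The genes described here are the well-expressed members of the human ZNF family, the largest named group of zinc finger genes. They were chosen by 2 criteria from the deposited table of normalized counts, a symbol made of ZNF, a number and at most 1 letter, and a mean of at least 300 over the 6 libraries. The rule found 128 genes among 557 rows with such a symbol and 61859 genes in the table. A further 282 ZNF genes had a mean between 10 and 300, and 77 ZNF rows had no reads. The rule used only the mean over all libraries, and ZNF394 and ZNF235 lay just inside it at 300.8 and 306, with ZNF574 and ZNF74 just outside at 298 and 298. The counts are not divided by transcript length, so levels are not compared between genes.

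The study used OSC19SSZR, a human line of oral squamous cell carcinoma that resists sulfasalazine, an inhibitor of the cystine transporter xCT. Cells received FOXA1 siRNA (n = 3) or control siRNA (n = 3) with Lipofectamine RNAi max, and total RNA was taken 48 h later. FOXA1 is a forkhead pioneer factor of epithelial cells. Both groups are the same resistant line with a transfected siRNA, the siRNA sequences are not in the sources used here, and nothing says that replicates were separate cultures, so the spread behind each p-value is that between libraries and may be technical. In bulk RNA, fewer cells of a kind and less RNA per cell cannot be told apart.

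C2H2 zinc finger proteins read DNA with tandem fingers, each of which contacts a few bases. Many also carry a KRAB box, which binds the corepressor TRIM28, and TRIM28 in turn brings the histone methyltransferase SETDB1, so that retroelements and some genes are packed into silent chromatin. Genes of the KRAB class arose by repeated duplication and lie in clusters, above all on chromosome 19. Other ZNF proteins bind RNA, ribosomes or the mitotic spindle, and a few share only the name.

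Members differed in what they carry. Of the 128, 126 were annotated as protein-coding and 2, ZNF812P and ZNF252P, as transcribed pseudogenes. A KRAB box was found in 55 and not found in 71 of the coding members. The median number of C2H2 fingers was 12 in members with a KRAB box and 6 in those without, and the highest was 34, in ZNF462. ZNF185 and ZNF503 had none by the spacing pattern used. Members lay on 20 chromosomes, with 41 on chromosome 19, of which 28 had a KRAB box. The median GC content of the longest transcript was 44.1% for KRAB members and 51.8% for those without a KRAB box.

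The promoters of 104 members were found in the RefSeq set (GRCh38.p14), as windows of 250 bases before to 50 bases after each start. They were searched on both strands for the motif ACTACA, then any 2 bases, then TCC, which is the core of the site of ZNF143, a zinc finger activator of housekeeping promoters. It stood in 13 of 104 members (12.5%), in 330 of 6832 other genes with a mean of at least 300 (4.83%) and in 2.32% of all 27305 genes with a window. ZNF genes with a mean of 10 to 300 held it at a like share, in 31 of 238 (13.0%). Genes with several starts were counted once, and members had 1.27 windows a gene against 1.46 in the other genes of that mean. Some starts lie inside the annotated gene, as do the stretches of ZNF146, ZNF343 and ZNF444 below. The following stretches of 30 bases carry the motif in capitals on the gene's own strand or as its reverse complement, and come from 5 members that were higher and 1 that was lower after FOXA1 siRNA.
ZNF317, chr19:9140308-9140337, plus strand: aacttcaaaACTACAATTCCcagcatcctc
ZNF354A, chr5:178730764-178730793, minus strand: acgcatggaACTACACTTCCccgaatgcag
ZNF343, chr20:2508915-2508944, minus strand: aggatgttgGGAATTGTAGTtctggcgtcg
ZNF146, chr19:36214965-36214994, plus strand: agcctcaagGGAAATGTAGTccaaggcctg
ZNF8, chr19:58278940-58278969, plus strand: ggcctactgGGAGTTGTAGTcgccgcgtcg
ZNF444, chr19:56141155-56141184, plus strand: tgcttcctgGGAGTTGTAGTtcggggtgag

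The 5 higher members had log2 fold changes of 0.38 (ZNF317), 0.35 (ZNF354A), 0.52 (ZNF343), 0.29 (ZNF146) and 0.21 (ZNF8), and ZNF444 fell by 0.50. The motif stood in 5 of 25 members called higher, 2 of 32 called lower (ZNF444 and ZNF277) and 6 of 47 without a call. The forkhead core TGTTTNC, the letters that FOXA1 and its relatives read, stood in 3 of 25 members called higher, 3 of 32 called lower and 16 of 47 without a call. In total 22 of 104 members (21.2%) held it, as did 16.9% of other genes with a mean of at least 300 and 21.2% of all genes. The member with the largest rise, ZNF106, has 1 such match. It stands at a start inside the gene, not at the annotated 5' end (42491141, minus strand). ZNF367, with the next largest rise, has a match to the E2F site TTTNGCGC. That site was found in 4 members (3.85%), in 3.95% of other genes with a mean of at least 300 and in 2.17% of all genes. The matches of ZNF106 and ZNF367 are shown with the motif in capitals.
ZNF106, chr15:42457591-42457620, minus strand: ccacctactctTGTTTCCaccccttaactt
ZNF367, chr9:96418387-96418416, minus strand: gttccgcccagGCGCGAAAtgtaacgcggg

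A match of letters is not evidence of binding, and these data hold no binding measurement.

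The targeted gene was checked first. FOXA1 had 247, 192 and 189 normalized counts with FOXA1 siRNA, against 1477, 1378 and 1459 with control siRNA. It fell by 2.79 on the log2 scale (SE 0.09, limma adjusted p = 3.32e-18), and the groups did not overlap (exact two-sided permutation p = 0.1, the smallest that 3 against 3 allows). Libraries held 16510125 to 25732569 reads, the deepest being a FOXA1 siRNA library. The squamous and epithelial markers KRT5, TP63, EPCAM and CDH1 were high in both groups, with means of 27947 and 31639 for KRT5 with FOXA1 and control siRNA. KRT14, another squamous keratin, was low in both, at 47.6 and 30.04, and KRT6A averaged 105 and 297. The fibroblast markers DCN, LUM and PDGFRA were at 0, while the collagen gene COL1A1, on the same list, was detected at 107 and 151. CD68, a macrophage marker, averaged 85.2 and 97.6, and the leukocyte marker PTPRC averaged 1.91 and 4.32. CDH5, an endothelial cadherin, averaged 288 with FOXA1 siRNA and 554 with control siRNA, while the other endothelial markers PECAM1 and VWF stayed at or under 4.99, and the part of these markers in other results was not tested.

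All 128 members were tested, and their calls ran in both directions. With FOXA1 siRNA 31 members were higher (24.2%), 41 were lower (32.0%) and 56 had no call. Over all 18460 genes tested, 26.8% were higher and 25% lower, and 51.8% were called either way. Genes above the same minimum mean are a closer reference: of 9206 other genes with a mean of at least 300, 40.1% were higher and 24.7% lower, 64.7% in all. They include 1854 genes with a mean of at least 2000, where 74.1% were called and only 2 members lay. The members' share of calls, 56.2%, thus lay near that of all genes and below that of other well-expressed genes, and fewer of their calls were rises.

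Most changes were small. The members' median log2 fold change was -0.03, with a quartile range of -0.25 to 0.17, against a median of 0.08 in other genes with a mean of at least 300 and 0.0039 in all genes tested. The difference between the medians was -0.104. Only 4 members were higher and 7 lower by at least 1.5-fold, together 8.59% of the 128. Such calls made up 13.4% of the other genes of that mean, 7.11% higher and 6.26% lower. Over all genes tested they made up 19.1%, 7.16% higher and 12% lower. The values of 83 members (64.8%) did not overlap between the groups, as in 69% of other genes with a mean of at least 300 and 57.6% of all genes tested.

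Up to a mean of 2000, the members' median lay furthest from that of other genes between means of 300 and 500. Between means of 300 and 500, 13 of 60 members were higher and 25 lower, with a median of -0.13, while 628 of 2081 other genes were higher and 577 lower, with a median of 0.01. Called either way were 63.3% of these members, against 57.9% of the other genes. Between 500 and 1000, 10 of 46 members were higher and 11 lower, median 0.03, against 1082 and 770 of 2984 other genes, median 0.06. In that range 21.7% of members were higher, against 36.3% of other genes, and 45.7% were called either way, against 62.1%. The smaller share of rises was thus not confined to the range of 300 to 500, where it was 21.7% against 30.2%. Between 1000 and 2000 the medians were 0.07 for 20 members and 0.09 for 2287 other genes. There 8 members were higher and 5 lower, against 978 and 551 of the other genes. In that range 65% of members and 66.9% of other genes were called either way. Only ZNF207 and ZNF638 lay above 2000, and neither was called, while 74.1% of 1854 other genes there were.

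**Figure D1:**
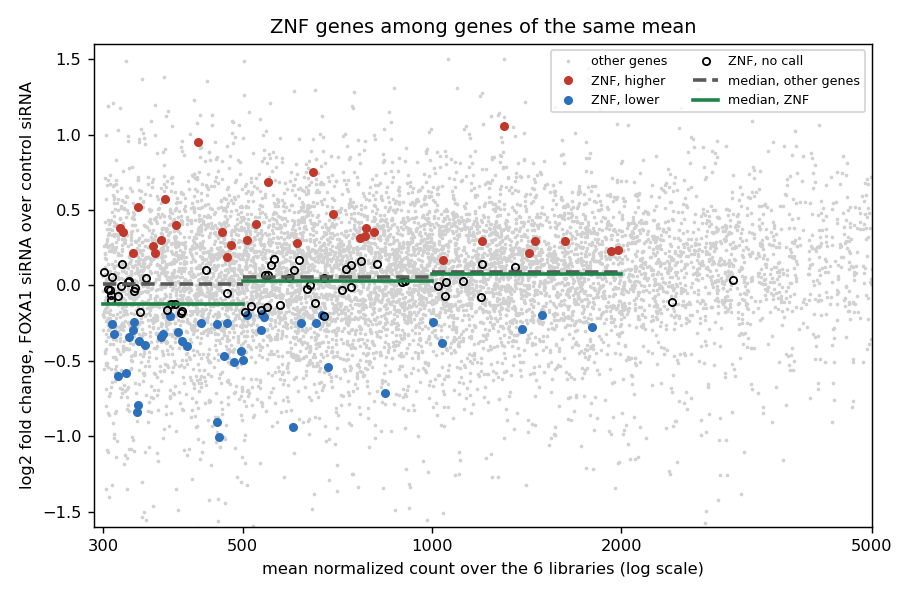
Log2 fold change of FOXA1 siRNA over control siRNA against the mean normalized count over the 6 libraries (log axis), for the 128 ZNF genes and other genes with a mean of at least 300. Horizontal lines are medians in the ranges 300 to 500, 500 to 1000 and 1000 to 2000, where the ZNF medians of -0.13, 0.03 and 0.07 lie below those of other genes, and 576 other genes fall outside the plotted range.

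The largest rise was that of ZNF106, an RNA-binding zinc finger protein whose loss in mice causes neuromuscular degeneration (chromosome 15, 42412823 to 42491141, minus strand). It had 1777, 1704 and 1789 normalized counts with FOXA1 siRNA, against 832, 798 and 905 with control siRNA. All FOXA1 siRNA libraries were thus far above all controls, a log2 fold change of 1.06 (SE 0.06, limma adjusted p = 3.33e-14), or 2.08 times the control mean. ZNF367, a short C2H2 factor on chromosome 9 with 2 fingers, had 555, 546 and 580 counts with FOXA1 siRNA and 262, 299 and 308 with control siRNA. Its change on the log2 scale was 0.95 (SE 0.08, limma adjusted p = 2.02e-10), again without overlap.

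The next rises were in genes of chromosome 19. ZNF714 has 12 fingers, and no KRAB box was found in any of its coding sequences that were searched. It had 861, 780 and 790 counts with FOXA1 siRNA and 445, 484 and 518 with control siRNA. ZNF440, a KRAB gene with 11 fingers, had 714, 686 and 631 counts, against 395, 437 and 429 in controls. Both rose in all 3 libraries above every control, by log2 fold changes of 0.75 (SE 0.07, limma adjusted p = 2.15e-09) and 0.69 (SE 0.08, limma adjusted p = 1.69e-08).

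ZNF274 is a KRAB protein that binds the 3' ends of other ZNF genes and brings SETDB1 to them through TRIM28. It had 458, 445 and 445 counts with FOXA1 siRNA, against 301, 310 and 297 with control siRNA. This was a rise of 0.57 on the log2 scale (SE 0.08, limma adjusted p = 1.25e-06), and both groups were tight, with SDs of 7.3 and 6.5 counts. The remaining rises among the top 10 were all KRAB genes, ZNF343 (0.52), ZNF544 (0.48), ZNF721 (0.40), ZNF587B (0.40) and ZNF317 (0.38), each with non-overlapping groups. ZNF343, ZNF544 and ZNF721 overlap other tested genes on the same strand, and ZNF587B overlaps ZNF586 and has the near-identical ZNF587, so their reads may be split or shared.

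The largest fall was in ZNF812P, a transcribed pseudogene on chromosome 19. It had 308, 305 and 295 counts with FOXA1 siRNA, against 671, 644 and 524 with control siRNA, a log2 fold change of -1.01 (SE 0.09, limma adjusted p = 1.84e-10). As a pseudogene it resembles related coding genes, and how the authors counted reads that match several genes is not given in the sources used here. ZNF629, a gene on chromosome 16 with 19 fingers, had 424, 408 and 401 counts with FOXA1 siRNA and 767, 776 and 824 with control siRNA. It fell by 0.94 on the log2 scale (SE 0.07, limma adjusted p = 1.33e-11), to 52.1% of the control mean.

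ZNF91 is the KRAB protein that silences SVA and some LINE-1 elements in primates, and with 32 fingers it had the most of any KRAB member. It had 313, 301 and 334 counts with FOXA1 siRNA, against 607, 543 and 629 with control siRNA. It fell by 0.90 on the log2 scale (SE 0.08, limma adjusted p = 4.26e-10), and every FOXA1 siRNA library lay below every control. Retroelement transcripts were not analysed here.

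Among the falls were 4 genes of known corepressor complexes. ZNF217, an oncogene amplified at 20q13 in breast and other carcinomas and a partner of the CoREST and CtBP corepressors, had 650, 585 and 680 counts with FOXA1 siRNA, against 1004, 1088 and 1043 with control siRNA. It fell by 0.71 on the log2 scale (SE 0.07, limma adjusted p = 1.28e-09), to 61.0% of the control mean. ZNF652, a repressor that works with CBFA2T3, had 240, 279 and 229 counts with FOXA1 siRNA, against 433, 418 and 444 with control siRNA. Its change on the log2 scale was -0.79 (SE 0.09, limma adjusted p = 3.22e-08). The other 2, ZNF827 and ZNF512B, encode proteins that bind the NuRD complex. ZNF827 had 300, 230 and 255 counts with FOXA1 siRNA, against 373, 406 and 392.3 with control siRNA, a log2 fold change of -0.58. ZNF512B had 583, 629 and 464 counts with FOXA1 siRNA, against 781, 839 and 796 with control siRNA, a log2 fold change of -0.54. For both genes every FOXA1 siRNA library lay below every control library.

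The top 10 falls were completed by ZNF428 (-0.84), ZNF888 (-0.60) and ZNF444 (-0.50), the last a SCAN-domain protein. ZNF428 lies opposite SRRM5, whose count was 82.0% of its own, and the strand setting of the count is not given in the sources used here. In all, 53 members overlap a tested gene on the opposite strand and 30 one on the same strand, so their counts may hold reads of both genes. The near-identical ZNF33A (-0.19) and ZNF33B (-0.24) were both lower and could share reads as well.

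**Figure D2:**
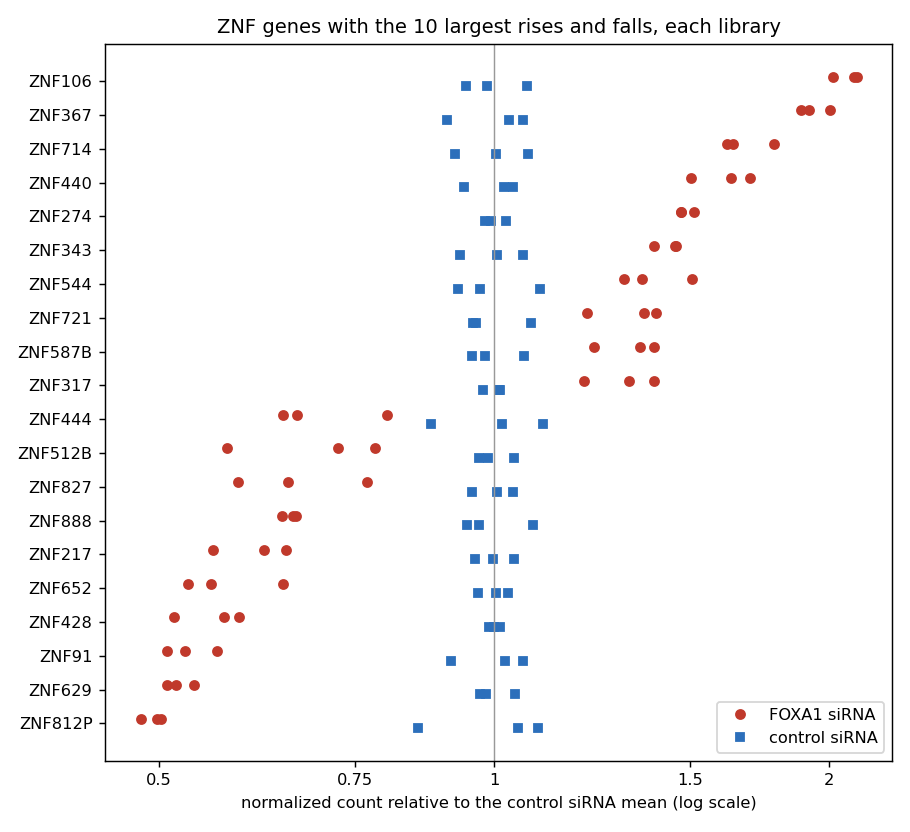
Normalized count of each library divided by the control siRNA mean of that gene (log axis), for the 10 members with the largest rises and the 10 with the largest falls. Circles are FOXA1 siRNA libraries and squares control siRNA libraries (n = 3 each), and the groups overlap for none of these 20 genes, from 2.08 times the control mean for ZNF106 to 49.4% of it for ZNF812P.

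Beside ZNF106, several other members have roles outside transcription. ZNF207 (BuGZ), which loads BUB3 at kinetochores, had 3044, 3023 and 3081 counts with FOXA1 siRNA, against 2935, 2961 and 3022 with control siRNA, a log2 fold change of 0.04 without a call. ZNF598, the ubiquitin ligase that senses collided ribosomes, was higher: 1633, 1661 and 1535 counts with FOXA1 siRNA, against 1247, 1368 and 1319 with control siRNA (log2 fold change 0.30, SE 0.06, limma adjusted p = 9.26e-05). ZNF593 and ZNF622, whose yeast relatives act on the maturing large ribosomal subunit, had log2 fold changes of 0.21 (limma adjusted p = 0.0412) and 0.13 (limma adjusted p = 0.103). The call of ZNF593 was lost under 10 of 16 alternatives, edgeR among them (adjusted p = 0.0603). ZNF622 was called higher without FOXA1 siRNA replicate 3 (0.17, limma adjusted p = 0.0464). ZNF326, of the DBIRD complex that links elongation and splicing, and ZNF638, an RNA-binding protein that helps silence unintegrated retroviral DNA, had no call, at 0.05 and -0.11. ZNF638 was called lower with equal library totals (-0.21), with quantile normalization (-0.19) and without FOXA1 siRNA replicate 3 (-0.19). ZNF185, an actin-binding LIM protein that shares only the name, was at -0.18 without a call (limma adjusted p = 0.0859). It was called lower with equal library totals (-0.28) and without FOXA1 siRNA replicate 2 (-0.26, limma adjusted p = 0.0263).

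Several members belong to small regulatory circuits. ZNF687 and ZNF592 form the Z3 complex with ZMYND8 and ZNF532. ZNF687 had 595, 582 and 520 counts with FOXA1 siRNA, against 679, 623 and 718 with control siRNA, and fell by 0.25 on the log2 scale (SE 0.08, limma adjusted p = 0.00671). Without control siRNA replicate 3 that call was lost (-0.20, limma adjusted p = 0.0555), as it was without limma's trend and robust options (adjusted p = 0.0567). ZMYND8 fell by 0.61, while ZNF592 at 0.07 and ZNF532, whose mean of 190 is under the minimum, at -0.08 had no call. ZNF410, which activates CHD4, had 1092, 1097 and 1116 counts with FOXA1 siRNA and 977, 978 and 983 with control siRNA, a log2 fold change of 0.17 (limma adjusted p = 0.0175). CHD4 was at 0.19 (limma adjusted p = 0.000587). The call of ZNF410 was lost with equal library totals (adjusted p = 0.314), with quantile normalization (adjusted p = 0.138) and without control siRNA replicate 2 (adjusted p = 0.0504).

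Of the remaining members listed for a known role, ZNF146, a protein made almost wholly of fingers, was higher, with 1770, 1814 and 1778 counts with FOXA1 siRNA and 1432, 1574 and 1379 with control siRNA (log2 fold change 0.29, limma adjusted p = 9.85e-05). ZNF281, a factor of pluripotency and epithelial-mesenchymal transition, was at -0.17, ZNF148, which binds GC-rich promoters, at 0.16, and the small protein ZNF706 at -0.03, all without a call. Leaving out 1 library gave -0.22 to -0.093 for ZNF281 and 0.091 to 0.24 for ZNF148, which was called at 0.24 without FOXA1 siRNA replicate 2. ZNF281 was called at -0.27 with equal library totals. Below the minimum of 300, ZNF143 itself, at 284 ± 27.2 counts with FOXA1 siRNA and 245 ± 44.4 with control siRNA (SD, n = 3 each), had no call. ZNF703, an oncogene of luminal breast cancer, fell by 1.00 on the log2 scale, with 60.2 ± 5.81 counts with FOXA1 siRNA and 123 ± 23.6 with control siRNA (limma adjusted p = 1.24e-05). ZNF750, a driver of epidermal differentiation, averaged 32.3 and 31.4 counts, with no call.

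The calls were also counted by structural class. Of 55 KRAB members, 16 were higher and 14 lower, with a median log2 fold change of -0.02. Of 71 without a KRAB box, 15 were higher and 26 lower, with a median of -0.07. With equal library totals the counts were 12 higher and 20 lower with a KRAB box, and 11 and 36 without. Other genes with a mean of at least 300 then had 2667 higher and 3132 lower. The difference between the classes was not tested. By number of fingers, in ranges set after the data were seen, 12 of 24 members with 15 or more fingers were lower and 4 higher (median -0.18), while 8 of 39 with 9 to 14 fingers were lower and 15 higher (median 0.05). Members with 3 to 8 fingers had 8 higher and 15 lower of 47, and those with 0 to 2 fingers 4 and 5 of 16. Other genes with a mean of at least 300 had 40.1% higher and 24.7% lower, and all genes tested 26.8% and 25%. Differences between the finger ranges were not tested. Long arrays that were lower include ZNF91, ZNF629, ZNF160 (-0.49) and ZNF646 (-0.21), whereas ZNF142, with 31 fingers, was higher (0.32).

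GC content of the transcript did not separate the calls in one direction. Of the 43 members with the lowest GC content 9 were higher and 13 lower, of the 42 in the middle 13 and 12, and of the 43 with the highest 9 and 16, with medians of -0.04, -0.02 and -0.0045. Other genes with a mean of at least 300, whatever their GC content, had 40.1% higher and 24.7% lower, and all genes tested 26.8% and 25%. Single libraries did move with GC content, however. Across the members, each library's deviation from its group mean correlated with GC content at Pearson's r of 0.25, 0.48 and -0.60 in the FOXA1 siRNA libraries and between -0.06 and 0.09 in the controls. These are correlations across genes, which are not replicates. The spread between replicates was larger with FOXA1 siRNA, with a median coefficient of variation of 5.54% over members, against 4.18% with control siRNA. Its part in the calls was not tested.

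**Figure D3:**
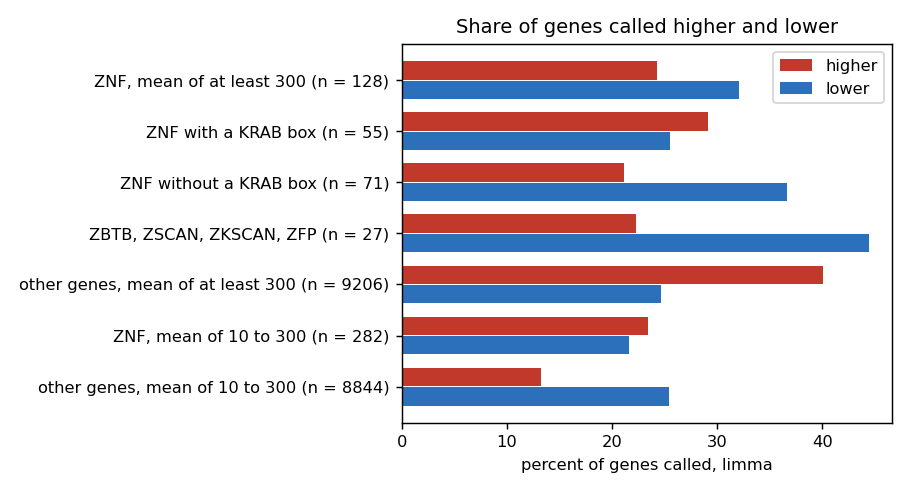
Percent of genes called higher and lower with FOXA1 siRNA (limma, adjusted p under 0.05) in groups of genes, with the number of genes in each. The 128 ZNF genes had 24.2% higher and 32.0% lower, where other genes of at least the same mean had 40.1% and 24.7%.

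On chromosome 19 the members were split evenly. Of 41, 13 were higher and 13 lower (median -0.01), against 216 and 125 of 571 other genes there with a mean of at least 300 (median 0.07). Elsewhere 18 of 87 were higher and 28 lower. When members less than 1 Mb apart were joined, chromosome 19 held 9 groups. The 2 members of the group at 23304991 to 23687220, ZNF91 and ZNF675, were both lower. ZNF675 had 370, 287 and 343 counts with FOXA1 siRNA, against 415, 418 and 411 with control siRNA (log2 fold change -0.32). The group at 9140380 to 9700776 held rises beside the fall of the pseudogene: ZNF317, ZNF121 (0.31) and ZNF562 (0.35) were higher, ZNF561 had no call and ZNF812P was lower. Neighbours in 1 stretch of DNA thus carried opposite calls.

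Larger groups were also mixed. The group nearest the end of the long arm, 57614233 to 58481230, has 11 members, of which 10 have a KRAB box. ZNF587B, ZNF274, ZNF544 and ZNF8 were higher there, ZNF552 and ZNF446 lower, and the other 5 had no call. In the group of 6 members without a KRAB box at 55576770 to 56160893, ZNF444, ZNF580 (-0.47) and ZNF865 (-0.25) were lower, ZNF787 (0.21) was higher, and ZNF579 and ZNF581 had no call. Of 5 KRAB members at 52269571 to 53458261, ZNF888 and ZNF160 were lower and ZNF480 higher (0.30). ZNF160 had 383, 413 and 454 counts with FOXA1 siRNA, against 585, 570 and 601 with control siRNA. The 7 members at 43525497 to 44305046 had ZNF575 higher (0.29), ZNF428 and ZNF226 (-0.37) lower and 4 without a call. Coordinates are those of GENCODE release 29 on GRCh38.

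**Figure D4:**
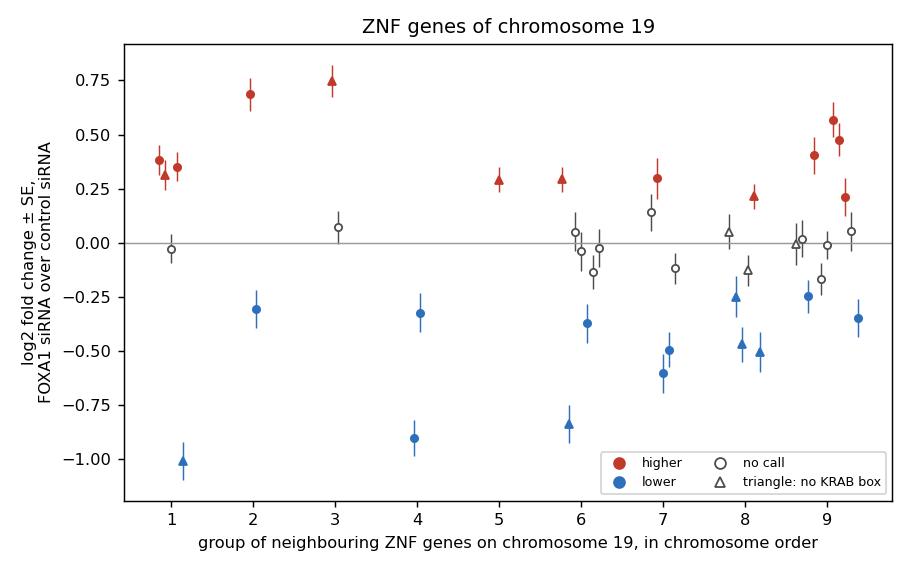
Log2 fold change with its standard error, FOXA1 siRNA over control siRNA, of the 41 ZNF members on chromosome 19, in 9 groups of neighbours in chromosome order (horizontal axis). Triangles are members without a KRAB box or that are pseudogenes, and filled symbols are called members. Higher and lower members stand side by side in 6 of the groups.

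The less abundant ZNF genes were followed to see how the rest of the family lay. Of 282 with a mean of 10 to 300, 66 were higher (23.4%) and 61 lower (21.6%), with a median log2 fold change of 0.01. With equal library totals 48 were higher and 72 lower, and with quantile normalization 96 and 45. The calls of all 18460 genes tested moved as well, to 3594 higher and 5967 lower with equal totals. With quantile normalization they were 4976 and 4458. Under the deposited scaling, other genes of that range had 13.2% higher and 25.4% lower, with a median of -0.11. By their medians, ZNF genes thus lay below other genes at means of at least 300 and above them at lower means. With a mean of 50 to 100, 20 of 70 ZNF genes were higher and 14 lower (median 0.12), against 217 and 468 of 1691 other genes (median -0.10). With a mean of 100 to 300, 38 of 152 were higher and 37 lower (median -0.01), against 673 and 995 of 3266 other genes (median -0.05). These differences between groups of genes are descriptions and were not tested.

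Zinc finger genes with other family names were counted in the same way. Of 27 ZBTB, ZSCAN, ZKSCAN and ZFP genes with a mean of at least 300, 6 were higher (22.2%) and 12 lower (44.4%), with a median of -0.06, against 40.1% and 24.7% of other genes of that mean. The largest fall was in ZSCAN31, a SCAN-domain zinc finger protein, with 191, 230 and 225 counts with FOXA1 siRNA, against 687, 638 and 705 with control siRNA. It fell by 1.65 on the log2 scale (SE 0.09, limma adjusted p = 8.16e-15), to 31.8% of the control mean, a greater fall than in any ZNF member. ZFP1, a KRAB protein, fell by 1.10 (SE 0.09, limma adjusted p = 3.23e-11) and ZFP64 by 0.35. ZFP91, a ubiquitin ligase of the NF-kB pathway, had 2491, 2481 and 2743 counts with FOXA1 siRNA, against 1539, 1813 and 1733 with control siRNA, a log2 fold change of 0.60, and ZFP62 was at 0.23. The call of ZFP62 was lost with equal library totals (0.13, limma adjusted p = 0.135), without FOXA1 siRNA replicate 3 (adjusted p = 0.0554) and without limma's trend and robust options (adjusted p = 0.0515). The last also ended the call of ZFP64 (adjusted p = 0.0507).

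Among 15 ZBTB genes, whose BTB domain lets them pair and recruit corepressors, 3 were higher and 6 lower. ZBTB2 (0.60) and ZBTB25 (0.31) rose most and ZBTB5 (-0.61) and ZBTB45 (-0.50) fell most. ZSCAN25 was at 0.41, and 2 of 3 ZKSCAN genes were lower, ZKSCAN1 at -0.46 and ZKSCAN8 at -0.29. The call of ZKSCAN8 was lost without control siRNA replicate 2 (-0.21, limma adjusted p = 0.0763).

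The partners that zinc finger repressors work through were followed as a list of 29 genes. Of these 10 were higher (34.5%) and 4 lower (13.8%), with a median change of 0.05 on the log2 scale. Other genes with a mean of at least 300 had 40.1% higher, 24.7% lower and a median of 0.08, and all genes tested had 26.8%, 25% and 0.0039. With equal library totals 7 genes of the list were higher and 9 lower, and with quantile normalization 6 and 8. Other genes with a mean of at least 300 had 2667 higher and 3132 lower with equal totals. With quantile normalization they had 3097 higher and 2715 lower. TRIM28, the scaffold that KRAB boxes bind, had 13024, 13547 and 11462 counts with FOXA1 siRNA, against 9826, 10423 and 9851 with control siRNA. Its change on the log2 scale was 0.33 (SE 0.05, limma adjusted p = 9.17e-06), and the lowest FOXA1 siRNA library still lay above all controls. With quantile normalization the TRIM28 change was 0.15 without a call (limma adjusted p = 0.118). SETDB1, the histone H3 lysine 9 methyltransferase that TRIM28 recruits, had 717 ± 19.8 counts with FOXA1 siRNA and 728 ± 24.7 with control siRNA (SD, n = 3 each), with no call.

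The list's largest rises were in the DNA methylation maintenance pair. UHRF1, which reads hemimethylated DNA, had 3448, 3529 and 3378 counts with FOXA1 siRNA, against 1421, 1584 and 1586 with control siRNA, a log2 fold change of 1.17 (SE 0.05, limma adjusted p = 2.57e-16). DNMT1, the methyltransferase it brings, had 5841, 5742 and 5845 counts with FOXA1 siRNA, against 3750, 3941 and 3870 with control siRNA, a log2 fold change of 0.59 (SE 0.05, limma adjusted p = 1.59e-11). Both groups of libraries were far apart. The H3 lysine 9 methyltransferases SUV39H1 (0.54) and SUV39H2 (0.38) were also higher.

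Readers of the same mark moved apart. Of the HP1 proteins, CBX1 fell by 0.67 (SE 0.06, limma adjusted p = 1.88e-10) and CBX5 by 0.45, whereas CBX3 was higher, at 0.40. CBX1 had 977, 902 and 929 counts with FOXA1 siRNA, against 1488, 1540 and 1453 with control siRNA. The remodeller SMARCAD1, which links TRIM28 to chromatin, fell by 0.35, and TASOR, a core subunit of the HUSH silencing complex, was at 0.20 with a call. Of the other HUSH genes, MPHOSPH8 (0.03) and PPHLN1 (0.10) had no call. EHMT2 had no call with a wide SE of 0.23, and its FOXA1 siRNA libraries ranged from 480 to 789 counts.

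**Figure D5:**
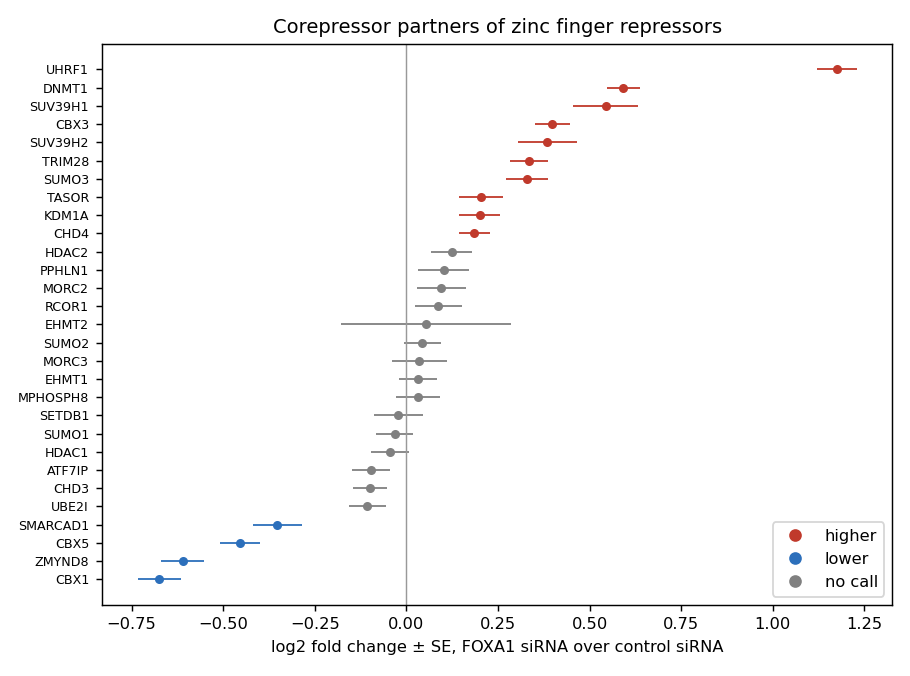
Log2 fold change with its standard error, FOXA1 siRNA over control siRNA, of the 29 corepressor genes, ordered by size. UHRF1 at 1.17 and DNMT1 at 0.59 lead the 10 higher genes, CBX1 at -0.67 and ZMYND8 at -0.61 the 4 lower ones, and SETDB1 lies near 0.

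Summed over the 128 genes, the ZNF normalized counts overlapped between the groups: 84492, 83798 and 84094 with FOXA1 siRNA, against 83824, 83727 and 84832 with control siRNA. As a share of all normalized counts in the library, however, they were lower, at 0.441%, 0.429% and 0.429%, against 0.458%, 0.463% and 0.469%, without overlap. The libraries' normalized totals differ, with about 19174600 to 19582300 after FOXA1 siRNA and 18080900 to 18291500 in controls. Scaling to equal totals moved the members' calls to 23 higher and 57 lower, so that 28.8% of member calls were rises, against 43.1% with the deposited scaling. In the other genes of at least that mean 46.0% of calls were rises with equal totals and 61.9% with the deposited scaling.

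The authors' deposited table, made with their own test, called 28 of the members higher and 32 lower at an adjusted p under 0.05. All 60 were also called by limma in the same direction. Over all genes, the authors' test called 8010. How many genes that test covered was not counted here, so the members' share of calls is not compared with that of all genes. For ZNF106 the authors' deposited table gives a log2 fold change of 1.06 with a standard error of 0.07, and for ZNF91 one of -0.91 with a standard error of 0.11.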

How the data were processed

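RNA from OSC19SSZR cells was sequenced 48 h after FOXA1 siRNA (n = 3) or control siRNA (n = 3). HISAT2, DESeq2 and the builds GRCh38 and GRCm38 are named, per the submitters' processing notes, without roles. Per the file headers, the authors deposited for each gene and sample a normalized count, a signal made by dividing a gene count by a size factor. It further lists the authors' log2 fold change, its standard error, a test score, a p-value and an adjusted p-value, also as deposited. Of 61862 lines, 3 were broken and left out. In every library 100% of the values were whole multiples of the value of 1 read, to within 0.01 read, so whole reads were recovered.

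Here limma 3.58.1 in R 4.3.3 (lmFit, then eBayes with trend and robust options) was run on log2(normalized count + 1) for 18460 genes with a mean of at least 10, and p-values were adjusted by the Benjamini-Hochberg method at a threshold of 0.05. Fold changes on this scale understate those of low genes. On the recovered reads, edgeR 4.0.16 called 4738 genes higher and 4800 lower, and DESeq2 1.42.0 called 4343 higher and 4150 lower. The fit was tested on simulated data of 18270 genes with known changes. Of 50 genes changed by 1.2-fold, 29 were called in the right direction, and of 50 changed by 1.5-fold all 50 were. Among the unchanged genes 12 were called. Changes of 1.2-fold were thus often missed in the simulation, where only 50 genes were changed at each of the folds 1.2, 1.5, 2 and 4. In the data 51.8% of genes tested were called, which makes the Benjamini-Hochberg cutoff less strict. The simulated shares therefore do not carry over to the data.

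Gene positions, fingers and KRAB boxes came from GENCODE release 29 on GRCh38. Fingers were counted with a C2H2 spacing pattern in the longest coding sequence. KRAB boxes were found with a profile of 42 positions built with pyhmmer 0.12.3 from 334 windows of the same proteins, at an E-value of at most 1e-04. Promoter windows came from RefSeq (GRCh38.p14). Numbers of replicates in the labels were not used to pair libraries.

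The members, the lists and the rule for named genes were chosen with earlier results of these data known. Named genes were the 10 largest rises and 10 largest falls among the members past the threshold, the 2 members just above and the 2 ZNF genes just below a mean of 300, a list of ZNF genes with known roles, and FOXA1, TRIM28 and SETDB1. From the corepressor list and each other C2H2 family, the 2 largest rises and 2 largest falls were added. Other members named in the text were chosen after their values were seen. Alternatives were other pseudocounts, filters, scalings, variance models and minimum means, the replicate number as a block, each library left out, edgeR and DESeq2.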

Additional observations from a re-analysis of the deposited data

How the results depend on the processing

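With equal library totals the median of all tested genes moved to -0.09, against 0.0039 with the deposited scaling. Under that scaling the ZNF median was -0.12, the ratio of summed ZNF counts was 0.934 and 9 corepressor genes were lower. With quantile normalization the corepressor list had 6 genes higher and 8 lower, the ZNF median minus that of other genes was -0.067 and the summed ratio was 0.975. With a minimum mean of 200, 45 ZNF genes were higher and 62 lower, and of those with a KRAB box 27 were higher and 23 lower. With a minimum of 500, 18 were higher and 16 lower, with 6 and 4 among KRAB genes and 12 lower without a KRAB box. The ZNF median was then 0.029 and its difference from other genes -0.064. Calls of other genes at minimum means of 200 and 500 were not counted here, so these counts are not compared with them. Leaving out each library in turn gave 26 to 31 ZNF genes higher and 31 to 40 lower, and median differences of -0.124 to -0.111. For KRAB genes it gave 13 to 15 higher and 10 to 14 lower. Of the 9206 other genes with a mean of at least 300, 3346 to 3590 were higher and 2043 to 2275 lower. The ZNF median itself lay between -0.053 and -0.034 in these fits. The causes were not tested.

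Same-numbered libraries showed no shared deviation (correlations of -0.0102, 0.0109 and -0.0109 over genes). Correlations over genes cannot settle whether same-numbered libraries were made together, and the labels do not say. With the replicate number as a block, 28 ZNF genes were higher and 40 lower, against 3600 and 2195 of the other genes with a mean of at least 300.

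Among named genes without a call, signs turned with equal totals for ZNF394 (-0.0080), ZNF574 (-0.012), ZNF207 (-0.061), ZNF326 (-0.048) and ZNF592 (-0.030). With quantile normalization ZNF207 turned to -0.067. Leaving out 1 library gave -0.023 to 0.19 for ZNF574, -0.011 to 0.12 for ZNF592, -0.087 to 0.055 for ZNF706, -0.054 to 0.0045 for ZNF235 and -0.050 to 0.00019 for SETDB1. Of the other values of named genes, 855 kept their direction and side of the threshold, 21 lost a call and 8 gained one. With 3 libraries a group and standard errors of 0.047 to 0.11 on the log2 scale, a missing call does not show that a gene is unchanged.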
